A study of Mus musculus with 8 samples.

Results

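The 10 genes described here mark adipocyte progenitors and fibroblasts and were measured in epididymal fat, a visceral depot of white adipose tissue that lies beside the epididymis in male mice. They were taken by gene symbol from a table of 16505 genes, and all 10 were present: Pdgfra, Pdgfrb, Dpp4, Pi16, Gpc3, Mfap5, Anxa3, Thy1, Cd34 and Ly6a. The tissue came from 4 wild-type (WT) C57BL/6 mice and from 4 C57BL/6 mice labelled Mir181 double-knockout, called the knockout here and DKO in the plots. The diet of both groups had been high in fat for 12 weeks. The labels do not name the deleted miR-181 loci or give age, litter or housing. The p-values therefore reflect only how far these 8 samples lie apart. Levels are given as log2 CPM, the log2 of a gene's reads scaled to the size of its library, and changes are knockout minus WT on that log2 scale.

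White fat holds a stroma of fibroblast-like cells around its adipocytes and vessels. Some of these cells are progenitors that can become adipocytes, and others lay down the collagen and elastic fibre scaffold. In mouse fat the receptor Pdgfra marks the stromal cells broadly. Dpp4, Pi16 and Anxa3 are used as markers of an early progenitor that lies in the connective tissue between lobules, while Cd34, Ly6a (encoding Sca-1) and Thy1 are surface proteins by which such cells are sorted. Several of these proteins are shared with other cells: Cd34 and Ly6a with endothelium, Thy1 with T cells and Pdgfrb with the mural cells that wrap vessels. In a tissue sample, fewer cells of a type and less RNA per cell cannot be told apart.

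The libraries held 3736881 to 76838584 reads, and each of the 10 genes had reads in every library, from 80 for Gpc3 in WT replicate 1 to 13466 for Cd34 in knockout replicate 2. The adipocyte markers Adipoq and Plin1 were abundant in every library, at 9.0 to 11.70 and 7.76 to 10.56 log2 CPM. A list of 17 epididymis markers, of which 16 were in the table, reached 2.56% of reads in knockout replicate 2, 1.46% in WT replicate 2 and 1.16% in knockout replicate 4. Every other library had at most 0.00505%, and the 5 such libraries are called the low-epididymis libraries here. Wilson 95% intervals lay within 0.00600 percentage points of these shares and cover counting error only. The 18S and 28S ribosomal RNA genes exceeded 1% of reads in WT replicates 1, 3 and 4 and knockout replicate 1. These were also the shallowest libraries, at 3736881 to 6790005 reads against 15410736 to 76838584 in the others. High ribosomal RNA and low depth therefore cannot be told apart here, and this split also runs partly along the groups. The epididymis and ribosomal RNA shares are both used below to form subsets of libraries in which the changes were computed again.

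The deleted microRNAs belong to a family that shares 1 seed, the stretch from base 2 to base 8 that pairs with messenger RNAs. The mature sequences are shown because the groups differ in these genes, with the seed in capitals. They come from RefSeq (GRCm38.p6), 5′ to 3′. Since the labels do not say which loci were deleted, all 4 mature forms are given. In GRCm38 the 5p arms of miR-181a and miR-181b lie at chr1:137966468-137966490 and chr1:137966650-137966673, with second copies at chr2:38852741-38852763 and chr2:38853845-38853868 (all plus strand). Those of miR-181c and miR-181d lie at chr8:84178924-84178945 and chr8:84178759-84178781 (minus strand).
mmu-miR-181a-5p: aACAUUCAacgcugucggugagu
mmu-miR-181b-5p: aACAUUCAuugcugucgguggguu
mmu-miR-181c-5p: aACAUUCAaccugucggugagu
mmu-miR-181d-5p: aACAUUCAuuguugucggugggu

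The match to this seed in a messenger RNA is TGAATGT. It was searched on the sense strand of the longest 3′ untranslated region (3′ UTR) of each gene in GENCODE release M21. Among the 10 genes it occurred once each in Pdgfra, Cd34 and Ly6a and not in the other 7 annotated 3′ UTRs. Over all 12851 tested genes with an annotated 3′ UTR, 18.5% held it. Each match is shown with its surroundings, the match in capitals. All 3 lie in 3′ UTRs, at GRCm38 positions chr5:75197981-75198009 (plus strand) for Pdgfra, chr1:194960650-194960678 (plus strand) for Cd34 and chr15:74994902-74994930 (minus strand) for Ly6a.
Pdgfra: tgttgcactttTGAATGTccaaaatttat
Cd34: tcacctgttccTGAATGTctgtctacaga
Ly6a: cacatgtatccTGAATGTccccctgttga
These 3 genes are among the 4 that did not pass the threshold between the groups, as the values below show. Of all tested genes with the match 21.8% rose and 17.6% fell, against 23.1% and 16.1% of those without it. The median changes were 0.127 with the match and 0.186 without. The shorter match GAATGT, found in 36.5% of these 3′ UTRs, also occurred in Dpp4, which rose. Whether the match bears on the calls among the 10 genes was not tested. A match of letters is not a measured binding site.

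The 10 genes did not move together. Of the 10, 2 rose in the knockout (Gpc3 and Dpp4), 4 fell (Mfap5, Anxa3, Thy1 and Pdgfrb) and 4 did not pass the threshold (Pdgfra, Pi16, Ly6a and Cd34), at an adjusted p under 0.05 in limma. All 10 were tested, since all were above the filter on low values. Over all 13797 tested genes 38.8% passed, 22.7% upward and 16.1% downward. With median centring the split over all genes was 2444 higher and 2825 lower instead of 3137 and 2216, and the calls among the 10 were 2 higher and 5 lower. The knockout and WT values did not overlap for 5 of the 10 genes, against 37.4% of all tested genes. The median change of the 10 was −0.36, while that of all tested genes was 0.18, so changes relative to that median are also given. As a share of all reads the 10 genes took 0.0980% to 0.123% in WT and 0.0838% to 0.0934% in the knockout, with Wilson 95% intervals within 0.00313 percentage points, and the groups did not overlap.

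The changes were also computed within the 4 libraries with over 1% ribosomal RNA and within the 4 with less. For the 6 genes that passed they were 1.26 and 1.47 for Gpc3, 0.52 and 0.56 for Dpp4, −0.96 and −1.61 for Mfap5, −0.84 and −1.16 for Anxa3, −0.76 and −1.04 for Thy1, and −0.31 and −0.46 for Pdgfrb. In each class 1 group is a single library, so these values have no error, and for the 5 genes whose groups do not overlap the sign is fixed in any subset. The values were −0.35 and −0.53 for Pdgfra, −0.28 and −0.14 for Ly6a, 0.07 and −0.53 for Pi16, and 0.23 and −0.04 for Cd34.

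**Figure D1:**
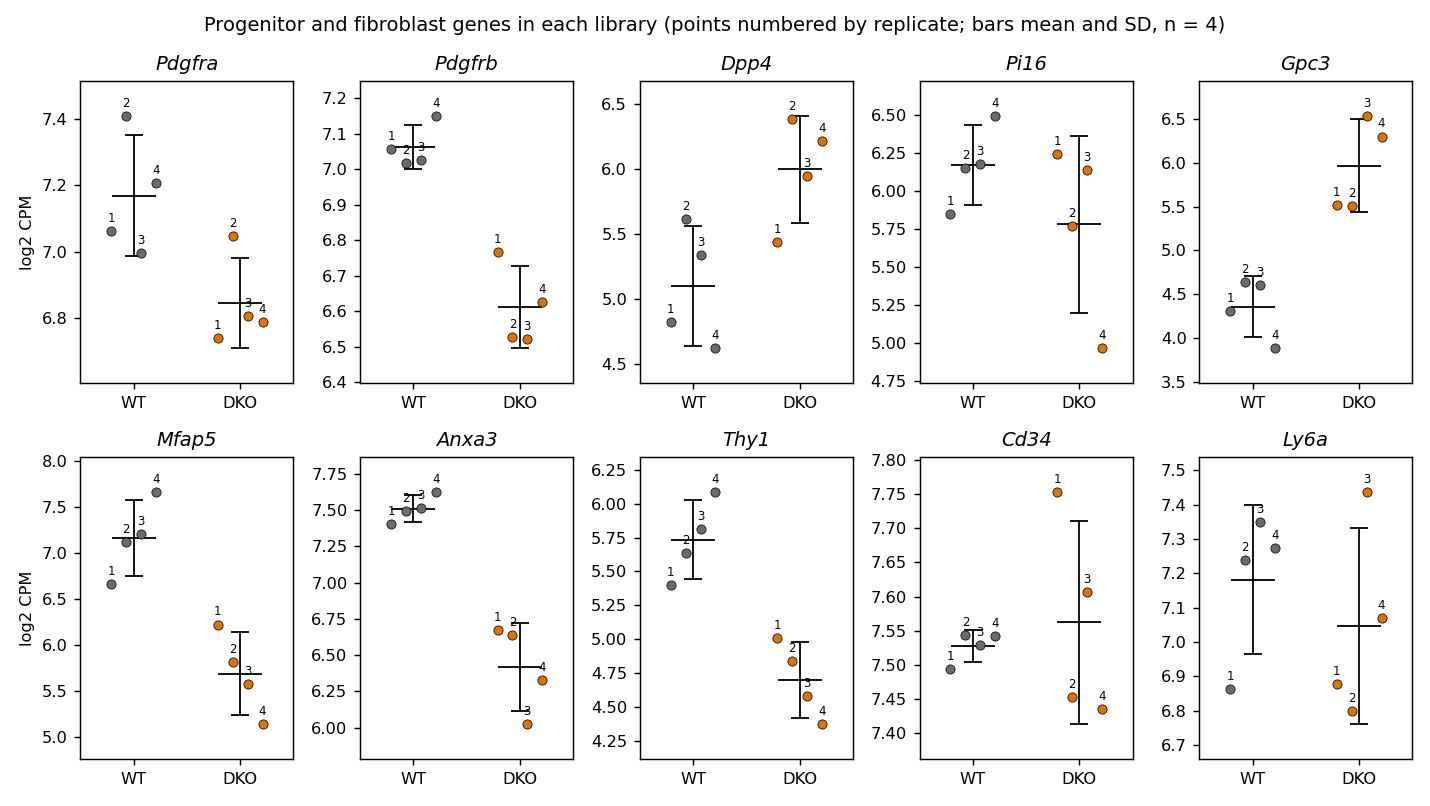
Log2 CPM (y axis, a separate scale per panel) of the 10 genes in each of 4 WT (grey) and 4 knockout (DKO, orange) libraries, numbered by replicate, with mean and SD. Gpc3 lies higher in every knockout library, and Mfap5, Anxa3, Thy1 and Pdgfrb lie lower in every one, while Pi16, Cd34, Ly6a, Pdgfra and Dpp4 overlap.

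Pdgfra and Pdgfrb encode the 2 receptor tyrosine kinases for platelet-derived growth factors, which drive growth and migration of stromal and mural cells. Pdgfrb was 7.06, 7.02, 7.03 and 7.15 in WT replicates 1 to 4 and 6.77, 6.53, 6.52 and 6.63 in knockout replicates 1 to 4. The WT libraries lay close together, and every knockout library lay under them. The change was −0.45 ± 0.09 (SE; adjusted p = 0.00438), or −0.63 relative to the median of all genes, the smallest of the changes that passed. The call was lost in the 5 low-epididymis libraries, where the change was nearly as large (−0.43, adjusted p = 0.0671).

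Pdgfra was 7.06, 7.41, 7.0 and 7.21 in WT and 6.74, 7.05, 6.81 and 6.79 in the knockout. Knockout replicate 2 overlapped the lower WT libraries, and the other 3 lay under all WT values. The difference of −0.32 ± 0.12 did not pass (adjusted p = 0.0567). It passed in 10 of 22 alternative analyses and not in the other 12. With each library centred on its median it passed at −0.47 (adjusted p = 0.0081). It also passed without WT replicate 3 (−0.38, adjusted p = 0.0488) and without knockout replicate 2 (−0.39, adjusted p = 0.0345). It did not pass in the low-epididymis libraries (−0.32, adjusted p = 0.155) or without WT replicate 2 (−0.24, adjusted p = 0.142). In each group the Pdgfra value was highest in replicate 2, a library with over 1% epididymis reads.

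The ligands of these receptors were measured as well. Of the 4 ligand genes, 1 fell and 0 rose in limma, beside 16.1% and 22.7% of all tested genes. At an unadjusted p under 0.05 there were 1 lower and 1 higher. Pdgfb, the ligand that endothelial cells use to recruit mural cells, fell from 5.94 ± 0.14 to 5.30 ± 0.09 (mean ± SD, n = 4), a change of −0.64 ± 0.10 (adjusted p = 0.00151). Pdgfa, the ligand that acts mainly through Pdgfra, stood at 3.61 ± 0.21 and 3.34 ± 0.15 in WT and knockout. Pdgfc stood at 4.51 ± 0.06 and 4.95 ± 0.36 without passing (adjusted p = 0.0735), and Pdgfd at 2.87 ± 0.68 and 3.43 ± 0.30 (adjusted p = 0.203). The Pdgfc difference passed without knockout replicate 1 (0.54, adjusted p = 0.032), without knockout replicate 2 (0.55, adjusted p = 0.0373) and with array weights (0.59, adjusted p = 0.00869). In each case 2 ligand genes passed, 1 in each direction. Array weights also raised the calls over all tested genes, from 5353 to 7037.

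Dpp4, Pi16 and Anxa3, all used as markers of the early interstitial progenitor, differed: Dpp4 rose, Anxa3 fell and Pi16 did not pass. Dpp4 encodes a surface peptidase that trims chemokines and incretin hormones. It was 4.82, 5.62, 5.34 and 4.62 in WT and 5.44, 6.39, 5.95 and 6.22 in the knockout. Knockout replicates 2, 3 and 4 lay above all WT libraries, and replicate 1 lay between WT replicates 3 and 2. The rise was 0.90 ± 0.26 (1.86-fold, adjusted p = 0.0244), or 0.72 relative to the median of all genes.

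The Dpp4 call was close to the threshold. It was lost without WT replicate 1 (0.81, adjusted p = 0.0725), WT replicate 4 (0.74, adjusted p = 0.0729), knockout replicate 2 (0.77, adjusted p = 0.0554), knockout replicate 3 (0.92, adjusted p = 0.0524) or knockout replicate 4 (0.83, adjusted p = 0.0589). After adjustment for high or low ribosomal RNA content it was 0.54 (adjusted p = 0.0637). In each group the Dpp4 value was highest in replicate 2, a library with over 1% epididymis reads. In the 5 low-epididymis libraries the rise was 0.77 (adjusted p = 0.0454). A list of 9 mesothelial markers took 0.00807% to 0.0246% of reads in WT, highest in replicate 2. In the knockout it took 0.0172% to 0.0585%, lowest in replicate 1 and highest in replicate 4. In both groups the highest share was that of a library with over 1% epididymis reads. Of the 9 mesothelial markers 4 rose and 0 fell, beside 22.7% and 16.1% of all tested genes. The keratins Krt8, Krt18 and Krt19 on this list had SDs of 1.65, 2.25 and 1.16 in WT, against 0.21 to 0.72 for its other genes. The part of epididymis in these markers was not tested. The part of mesothelial cells in the Dpp4 level was not tested.

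Pi16, a peptidase inhibitor gene that marks fibroblasts around vessels in many tissues, was 5.85, 6.15, 6.17 and 6.49 in WT and 6.25, 5.77, 6.14 and 4.96 in the knockout. The groups overlapped, with knockout replicate 4 under the other 7 libraries. The difference of −0.39 ± 0.27 did not pass (adjusted p = 0.277), and was −0.12 without knockout replicate 4 (adjusted p = 0.638). In the 5 low-epididymis libraries it was 0.02 (adjusted p = 0.957). Part of the Pi16 messenger RNA, 3.85% of its 75-base windows, is antisense to AC162182.1, and whether reads were counted by strand is unknown here.

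Anxa3, encoding a calcium-dependent phospholipid-binding annexin, was 7.40, 7.49, 7.51 and 7.63 in WT and 6.67, 6.64, 6.02 and 6.33 in the knockout. The 4 WT values spanned a narrow range and all knockout values lay well under it. It fell by 1.09 ± 0.15 (2.13-fold, adjusted p = 0.000601), which is −1.27 relative to the median of all genes. Of the other annexins on the list of related genes, Anxa1, which has anti-inflammatory roles, fell from 10.50 ± 0.14 to 9.09 ± 0.59, while Anxa2 (10.62 ± 0.14 and 9.88 ± 0.74) and Anxa5 (9.88 ± 0.15 and 9.28 ± 0.47) did not pass.

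Other genes that mark the interstitial progenitor passed about as often as all tested genes. Of 10 such genes, 8 were above the filter, of which 3 rose and 0 fell in limma, beside 38.8% of all tested genes. At an unadjusted p under 0.05 there were 4 higher and 0 lower, and with median-ratio scaling together with voom weights 2 higher and 0 lower. The 8 had a median change of 0.53. The complement regulator Cd55 (5.74 ± 0.24 and 5.67 ± 0.59) and the semaphorin Sema3c (6.55 ± 0.42 and 6.76 ± 0.78) overlapped between the groups. The transcription factor Creb5 stood at 1.84 ± 0.17 and 1.51 ± 0.53. The growth factor Bmp7 rose by 2.08 ± 0.73 (adjusted p = 0.0496), from 0.39 ± 1.52 in WT to 2.47 ± 0.79. Its call was lost in 9 of 21 alternatives, among them leaving out any 1 of WT replicates 1, 3 and 4 (1.88, 2.16 and 1.54) or of knockout replicates 2, 3 and 4 (1.82, 2.17 and 1.93). WT replicate 2, with its epididymis reads, stood at 2.37 for Bmp7 against −1.23 to 0.63 in the other WT libraries. The others that rose, picked out after their values were seen, were Limch1 (0.84 ± 0.19) and Dact2 (2.27 ± 0.50). Wnt2, another marker of this cell, lay under the filter, at 0.54 ± 0.71 in WT and −1.19 ± 1.31 in the knockout, with 0 reads in knockout replicate 1.

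Gpc3 had the largest rise of the 10 genes. It encodes glypican-3, a heparan sulfate proteoglycan held on the cell surface by a lipid anchor, which binds growth factors and restrains Hedgehog signalling. It was 4.30, 4.64, 4.6 and 3.88 in WT and 5.52, 5.51, 6.54 and 6.30 in the knockout. Every knockout library lay above every WT library; replicates 3 and 4 were the highest. The rise was 1.61 ± 0.27 (3.05-fold, adjusted p = 0.00185), or 1.43 relative to the median of all genes, and 93.9% of tested genes had a lower change. It was 1.77 in the 5 low-epididymis libraries.

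The glypican relatives of Gpc3 differed among themselves. Gpc4 rose by 1.19 ± 0.33 (adjusted p = 0.0208), from 4.76 ± 0.50 to 5.95 ± 0.62. Gpc6 fell from 5.35 ± 0.21 to 4.43 ± 0.39 (−0.91 ± 0.20, adjusted p = 0.00658). Gpc1 and Gpc2 did not pass, with differences of −0.40 ± 0.28 and 0.75 ± 0.56. Gpc4 lost its call without WT replicate 1 (1.16, adjusted p = 0.0565), without WT replicate 4 (0.97, adjusted p = 0.0613) and after adjustment for ribosomal RNA content, where it was 0.78 (adjusted p = 0.0675). Gpc1 passed without knockout replicate 2 (−0.71, adjusted p = 0.00934).

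The promoter windows of the 2 genes that rose are shown because they are of different kinds. RefSeq windows (GRCm38.p6) from 250 bases before to 50 bases after the start were at hand for 5 of the 10 genes, the others being Pdgfra, Pi16 and Cd34. Motifs were searched on both strands and are in capitals: the TATA box TATAAA, the CCAAT box CCAAT, the GC box GGGCGG, the AP-1 motif TGACTCA and the E-box CAGCTG. These occurred in 14.1%, 37.8%, 35.6%, 5.2% and 16.2% of 27025 such windows, 1 per gene. The Dpp4 window is chr2:62412182-62412481 (minus strand) and the Gpc3 window chrX:52613925-52614224 (minus strand).
Dpp4: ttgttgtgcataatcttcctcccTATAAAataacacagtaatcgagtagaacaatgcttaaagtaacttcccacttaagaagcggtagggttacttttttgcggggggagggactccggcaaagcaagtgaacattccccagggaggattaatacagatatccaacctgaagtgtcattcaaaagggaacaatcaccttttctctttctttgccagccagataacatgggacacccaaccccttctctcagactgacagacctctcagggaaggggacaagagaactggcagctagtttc
Gpc3: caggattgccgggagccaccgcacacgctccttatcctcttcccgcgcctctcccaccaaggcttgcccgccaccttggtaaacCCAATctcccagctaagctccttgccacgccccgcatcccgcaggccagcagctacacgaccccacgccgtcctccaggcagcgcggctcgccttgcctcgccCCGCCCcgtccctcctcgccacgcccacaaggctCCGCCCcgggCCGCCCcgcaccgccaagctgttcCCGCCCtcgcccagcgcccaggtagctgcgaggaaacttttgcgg
The Gpc3 window was 70.7% G and C with 30 CpG dinucleotides, 4 GC boxes and 1 CCAAT box. The Dpp4 window was 45.3% G and C with 4 CpG dinucleotides and 1 TATA box, far upstream of the start. The median window had 52.7% G and C and 7 CpG dinucleotides. A match is a description of the letters and not of a bound factor.

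Mfap5 had the largest fall of the 10 genes. It encodes a glycoprotein of the microfibrils, the thin fibres on which elastin is laid down. It was 6.66, 7.12, 7.21 and 7.67 in WT and 6.22, 5.81, 5.57 and 5.14 in the knockout. All knockout libraries lay under all WT libraries, and both groups were spread over more than 1 log2 unit. The fall was −1.48 ± 0.26 (2.79-fold, adjusted p = 0.00229), or −1.66 relative to the median of all genes, and 5.57% of tested genes had a lower change. In the 5 low-epididymis libraries it was −1.28 (adjusted p = 0.0107).

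Genes of the same fibres moved in both directions, as they did with quantile normalization (2 higher, 6 lower) but not with median centring (0 higher, 7 lower) or with median-ratio scaling together with voom weights (0 higher, 6 lower). Of 12 microfibril and elastic fibre genes tested, 4 fell, 2 rose and 6 did not pass, and the median change was −0.65. Of all tested genes 16.1% fell and 22.7% rose. Fibrillin-1 (Fbn1), the backbone of microfibrils, was 8.92 ± 0.24 in WT and 7.64 ± 1.20 in the knockout, a difference of −1.28 ± 0.51 that did not pass (adjusted p = 0.0728). Its knockout values ran from 8.76 in replicate 1 to 6.09 in replicate 4. It passed without knockout replicate 1 (−1.65, adjusted p = 0.0217), without knockout replicate 2 (−1.53, adjusted p = 0.0468) and with array weights. Elastin (Eln) rose from 5.70 ± 0.11 to 6.39 ± 0.35 (0.69 ± 0.17, adjusted p = 0.0103), and the related glycoprotein Mfap2 fell from 3.65 ± 0.23 to 2.82 ± 0.23 (−0.82 ± 0.19, adjusted p = 0.00825). Mfap4, another protein of elastic fibres, stood at 4.49 ± 0.30 and 3.88 ± 0.46 (adjusted p = 0.077), and passed without knockout replicate 2 (−0.84, adjusted p = 0.00898). Eln no longer passed with median centring (0.55, adjusted p = 0.0524) or median-ratio scaling together with voom weights (0.53, adjusted p = 0.0748). With array weights 10 genes of the list passed, 8 lower and 2 higher, while the calls over all tested genes went from 5353 to 7037.

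Thy1 encodes a small surface glycoprotein held by a lipid anchor and found on fibroblasts, neurons and T cells. It was 5.40, 5.64, 5.81 and 6.09 in WT and 5.01, 4.84, 4.58 and 4.38 in the knockout. The groups did not overlap. Thy1 fell by 1.03 ± 0.18 (2.04-fold, adjusted p = 0.00243), which is −1.21 relative to the median of all genes. The 10 T cell markers, none at 0 reads in any library, took 0.000971% to 0.00172% of reads in WT and 0.00225% to 0.00292% in the knockout. Of the 9 that were tested, 0 passed in limma, and at an unadjusted p under 0.05 there were 4 higher and 0 lower. The T cell receptor subunit Cd3e was −0.49 ± 0.40 in WT and 0.57 ± 0.48 in the knockout (adjusted p = 0.0821), far under Thy1 in every library. The part of T cells in the Thy1 level was not tested.

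Cd34 and Ly6a did not pass between the groups. Cd34, a sialomucin of progenitors and endothelium, was 7.49, 7.54, 7.53 and 7.54 in WT and 7.75, 7.45, 7.61 and 7.44 in the knockout. The knockout libraries lay on both sides of the WT values. The difference was 0.04 ± 0.10 (adjusted p = 0.793), and its sign was negative with median centring (−0.11) and with median-ratio scaling together with voom weights (−0.07). Over 22 alternatives it ran from −0.11 to 0.16.

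Ly6a, whose product Sca-1 is anchored by a lipid, was 6.86, 7.24, 7.35 and 7.28 in WT and 6.88, 6.80, 7.44 and 7.07 in the knockout. The groups overlapped, with 1 knockout library above all WT values and 1 below them, and the difference was −0.14 ± 0.16 (adjusted p = 0.533), from −0.28 to 0.00233 over the alternatives. Of its 75-base windows 2.38% also occur in Ly6c1 or Ly6i, so a small part of its counts is uncertain. The other 9 genes shared no such window with another gene on the same strand. For Cd34, 3.11% of windows are antisense to Gm16897.

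Endothelial cells also carry both of these proteins. All 12 tested endothelial markers rose, beside 22.7% of all tested genes, with changes from 0.81 to 1.37. The 12 markers did so in each of the 22 alternatives, and together took 0.0589% to 0.0790% of reads in WT and 0.126% to 0.162% in the knockout. Mural markers, relevant to Pdgfrb, took 0.0275% to 0.0393% in WT and 0.0578% to 0.303% in the knockout, where the highest value is that of knockout replicate 4. Of 9 mural markers 6 rose, among them the smooth muscle actin Acta2 (1.77 ± 0.50), and 0 fell, beside 22.7% and 16.1% of all tested genes. At an unadjusted p under 0.05 there were 7 higher and 0 lower. The adjusted calls among mural markers were 3 without WT replicate 4 and 3 after adjustment for ribosomal RNA content, with median changes of 1.04 and 1.14 against 1.09. The mural proteoglycan Cspg4 stood at 5.57 ± 0.18 and 5.57 ± 0.19. In the knockout the SDs of Acta2, Tagln, Des and Myh11 were 1.15 to 2.09, against 0.19 to 0.71 for the other mural markers. Cd34, Ly6a and Pdgfrb therefore stood beside rising markers of other cells that express them, and the part of those cells in their levels was not tested.

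**Figure D2:**
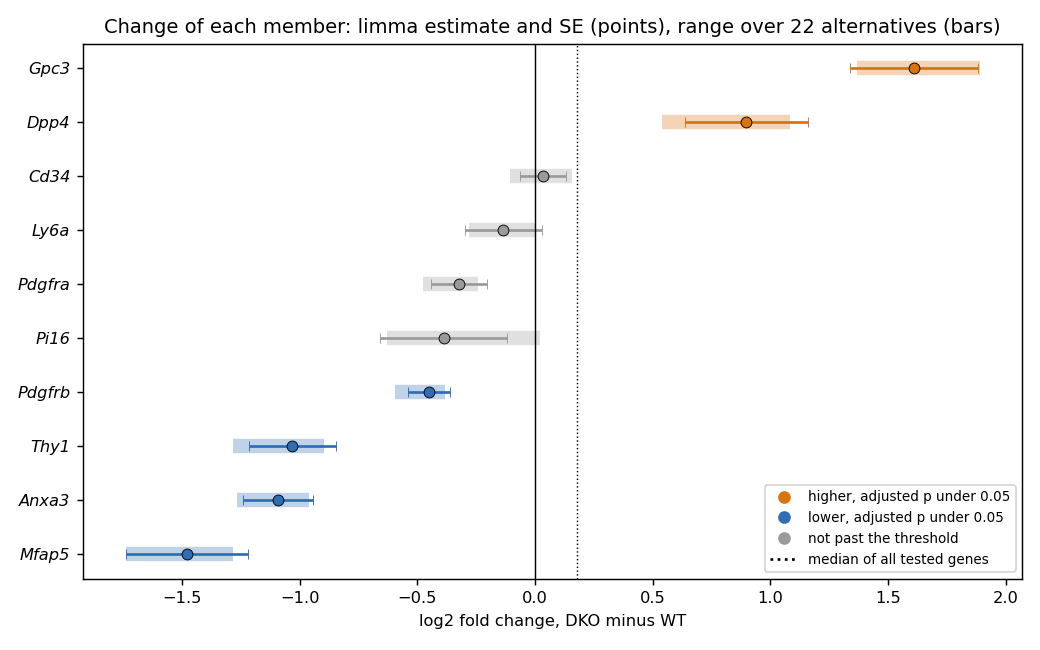
Change in log2 CPM between knockout and WT (x axis, positive where the knockout is higher) of each gene with its SE (points and error bars), and the range over 22 alternative analyses (pale bars); the dotted line is the median of all tested genes. The bars of Gpc3, Dpp4, Pdgfrb, Thy1, Anxa3 and Mfap5 stay on 1 side of 0, and those of Cd34, Ly6a and Pi16 cross it.

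Genes of the more committed preadipocyte were mixed, and several of them are also made by adipocytes, whose markers rose in 9 of 10, beside 22.7% of all tested genes. Of 12 preadipocyte genes 11 were tested, of which 3 rose and 2 fell, beside 22.7% and 16.1% of all tested genes. The adhesion molecule Icam1 fell from 5.56 ± 0.06 to 5.05 ± 0.24 (−0.52 ± 0.13, adjusted p = 0.0119). In the 5 low-epididymis libraries the difference was about as large and did not pass (−0.47, adjusted p = 0.091). The zinc finger factor Zfp423, which commits cells to the fat lineage, rose from 4.65 ± 0.23 to 5.40 ± 0.32, though it did not pass with median centring (0.60, adjusted p = 0.0602) or median-ratio scaling together with voom weights (0.58, adjusted p = 0.0776). Pparg, the master regulator of adipocyte differentiation, rose from 6.45 ± 0.25 to 7.88 ± 0.36 (1.43 ± 0.19, adjusted p = 0.000593). Ebf2, a factor of brown and beige fat precursors, stood at 3.73 ± 0.35 and 4.35 ± 0.53 (adjusted p = 0.107), and passed without knockout replicate 2 (0.87, adjusted p = 0.0156). In the 5 low-epididymis libraries 3 genes of this list passed, 2 higher and 1 lower, and with median centring 3 passed, 1 higher and 2 lower. The preadipocyte inhibitor Dlk1 lay under the filter, at −2.63 ± 0.81 and −0.15 ± 1.05, with 0 reads in WT replicates 1 and 4.

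Another stromal population, set apart by tissue factor (CD142), restrains adipocyte formation by its neighbours. Of its 6 genes 4 rose and 1 fell, beside 22.7% and 16.1% of all tested genes. In the 5 low-epididymis libraries 3 rose and 1 fell. F3, the gene of CD142 itself, stood at 6.04 ± 0.19 and 5.72 ± 0.35 (adjusted p = 0.193). The growth factor Clec11a fell from 3.62 ± 0.24 to 2.31 ± 0.54 (−1.31 ± 0.28), while the monooxygenase Fmo2 rose from 5.29 ± 0.34 to 6.63 ± 0.38 (1.34 ± 0.22) and the TGF-beta family member Gdf10 from 4.62 ± 0.20 to 5.44 ± 0.22 (0.82 ± 0.15).

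General fibroblast genes resembled Mfap5, Anxa3 and Thy1 in direction. Of 16 tested, 10 fell and 1 rose, beside 16.1% and 22.7% of all tested genes, with a median change of −1.12. In the 5 low-epididymis libraries the counts were also 10 and 1. The share of all reads taken by the list overlapped between the groups, at 1.26% to 1.51% in WT and 1.04% to 1.48% in the knockout. The proteoglycan lumican (Lum) fell from 9.05 ± 0.24 to 6.83 ± 0.60 (−2.23 ± 0.27, adjusted p = 0.000362). The 2 chains of type I collagen fell as well, Col1a1 by 1.69 ± 0.34 and Col1a2 by 1.49 ± 0.29 (adjusted p = 0.00469 and 0.00399). Decorin (Dcn), a related proteoglycan, stood at 10.86 ± 0.10 and 10.57 ± 0.41 and did not pass (adjusted p = 0.334). The member that rose, picked out after its values were seen, was gelsolin (Gsn, 1.31 ± 0.27), an actin-severing protein of many cell types. Gsn stood at 11.67 ± 0.15 in WT and 12.97 ± 0.34 in the knockout, where no other gene of the list had a mean over 10.57. The knockout share of the list given above is thus weighted most by Gsn, and the share without Gsn was not computed. In bulk tissue the general fibroblast genes can also reflect other cells. Macrophage markers took 0.823% to 0.961% of reads in WT and 0.180% to 0.236% in the knockout, and 11 of 12 fell, beside 16.1% of all tested genes. The fibroblast genes thus fell beside a change in another cell type, whose part in them was not tested.

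**Figure D3:**
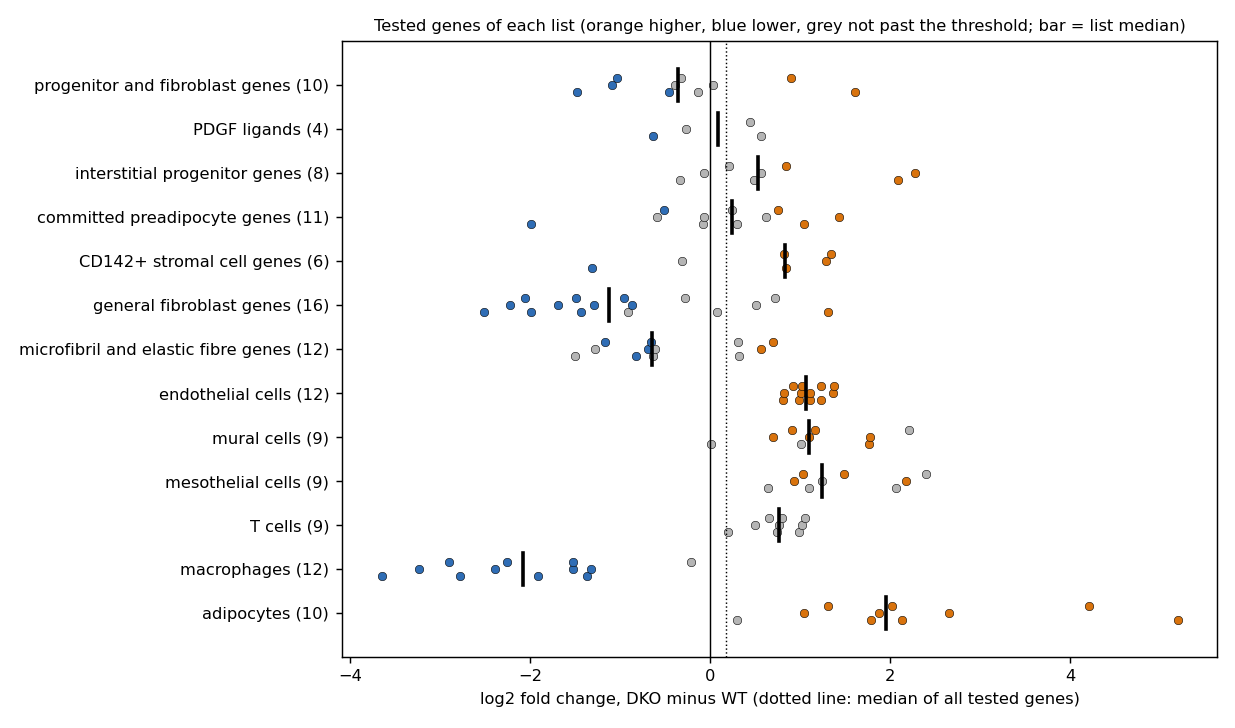
Each point is 1 tested gene (number per list in brackets), placed along the x axis by its change in log2 CPM between WT and knockout, positive to the right; orange and blue are past the threshold, grey is not, and black bars are list medians. The 10 progenitor and fibroblast genes spread from −1.48 to 1.61, general fibroblast genes lie mostly to the left and endothelial genes all to the right.

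Levels of different genes were compared per kilobase of exon (log2 CPM per kb), with lengths from GENCODE M21. The length is that of all annotated exons of a gene merged. It can exceed the longest protein-coding transcript, as for Cd34 (7290 against 2554 bases) and Mfap5 (3589 against 1506 bases). The order of the genes and the overlaps below hold for these lengths and can differ with transcript lengths, which were not used. Ly6a was highest in both groups, at 6.91 ± 0.22 in WT and 6.78 ± 0.29 in the knockout, apart from the next gene in each. In WT it was followed by Anxa3 (5.64 ± 0.09) and Mfap5 (5.32 ± 0.41), which overlapped, then Cd34 (4.66 ± 0.02) and Pdgfrb (4.61 ± 0.06), which overlapped, and Thy1 (4.15 ± 0.29). Pdgfra (3.84 ± 0.18), Pi16 (3.5 ± 0.26), Gpc3 (2.93 ± 0.35) and Dpp4 (2.44 ± 0.46) came last, each overlapping its neighbour. In the knockout Gpc3 had rank 4 (4.54 ± 0.53), Mfap5 rank 6 (3.84 ± 0.45) and Thy1 rank 9 (3.12 ± 0.28), and from Cd34 downward every gene overlapped the next.

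**Figure D4:**
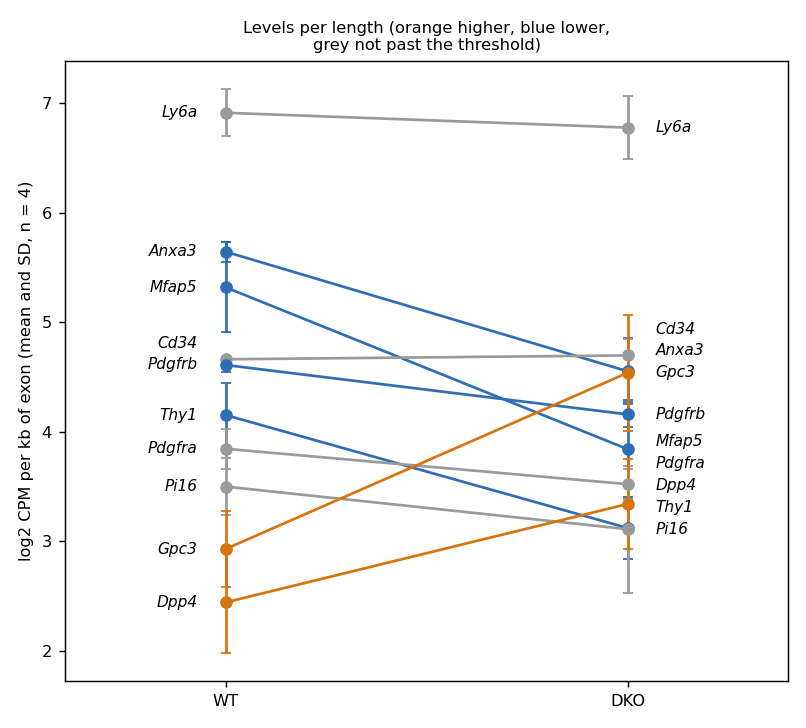
Mean log2 CPM per kb of exon with SD (n = 4) in WT and knockout (DKO), 1 line per gene; orange rose, blue fell, grey did not pass the threshold. With these lengths (all annotated exons merged) Ly6a is highest in both groups, and Gpc3 moves from rank 9 to rank 4.

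The knockout libraries also differed among themselves. Relative to the WT mean, Mfap5 stood at −0.94, −1.35, −1.59 and −2.03 in knockout replicates 1 to 4, and Thy1 at −0.72, −0.89, −1.15 and −1.36. Replicate 1 was thus nearest to WT for both genes and replicate 4 farthest. Gpc3 stood at 1.16 and 1.15 in replicates 1 and 2 and at 2.18 and 1.94 in replicates 3 and 4. Pi16 was lowest in replicate 4, at −1.20 against −0.40 to 0.08 in the others. Knockout replicate 4 is also the library with the most mural transcripts (0.303% of reads, against at most 0.0687% elsewhere), with the smooth muscle myosin Myh11 at 10.32 log2 CPM against 4.35 to 6.45. The part of this in the progenitor genes was not tested. Mfap5 and Thy1 also fell without that library, by limma changes of −1.30 (adjusted p = 0.00442) and −0.92 (adjusted p = 0.0057).

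**Figure D5:**
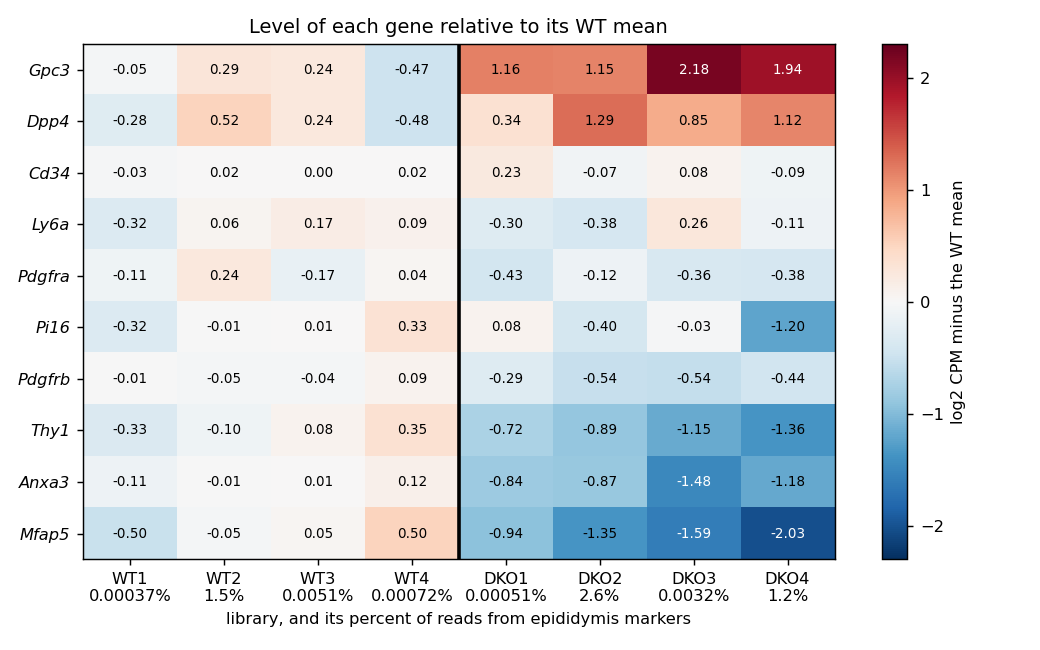
Log2 CPM minus the WT mean of each gene (colour and number) in the 8 libraries, WT left and knockout (DKO) right of the black line, with the percent of reads from epididymis markers under each name. Gpc3 is positive and Mfap5, Anxa3, Thy1 and Pdgfrb are negative in all 4 knockout libraries, and Pi16 is lowest in knockout replicate 4.

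The genes with the most similar pattern were sought for Pdgfra and Pi16 by Pearson correlation of log2 CPM over the 8 libraries, outside the 10 genes. For Pdgfra these were Arhgef10l (r = 0.972), Rnf41 (r = 0.967) and Scyl3 (r = 0.960). For Pi16 they were Ap2a2 (r = 0.976), the unnamed transcript 6030419C18Rik (r = 0.95) and Rnf19b (r = 0.938). These are descriptions over 8 libraries that share a group structure, and none of the 6 is a fibroblast marker on the lists used here. In the main test Arhgef10l was the 1 of the 6 that passed between the groups, with a change of −0.64 ± 0.17 (adjusted p = 0.0173). Scyl3 passed in 8 of 22 alternatives, among them median centring (−0.47, adjusted p = 0.00579) and leaving out knockout replicate 2 (−0.40, adjusted p = 0.0497), and Rnf41 in 2, among them median centring (−0.35, adjusted p = 0.0291).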

How the data were processed

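Polyadenylated RNA was extracted with TRIzol and RNeasy columns, made into TruSeq Stranded mRNA libraries and read as single 75-base ends, per the labels' protocols. The submitters' processing notes name Trimmomatic, TopHat2, featureCounts, limma and mm9; no source used here gives their order, settings or strand use. The deposited values are log2 CPM per gene, made by the authors with voom, as the values show: 100% of them came within 0.01 of a whole read with 0.5 added to each count and 1 to each total. The count-based shares used these recovered reads.

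The test was limma 3.58.1 (R 4.3.3; lmFit and eBayes with a variance trend) on the deposited log2 CPM of 4 WT and 4 knockout libraries, and the model held group alone. The filter kept the 13797 of 16505 genes whose mean log2 CPM was 0 or more, and p-values are two-sided and adjusted by Benjamini-Hochberg over all of them. On simulated reads for this comparison (13762 genes) 92 of 98 genes changed 2-fold and 98 of 98 changed 4-fold were recovered, with 6 false calls. The simulation gave every gene its mean WT level and the same dispersion (0.020). Apart from 100 genes changed at each fold, its libraries differed only in size. These recoveries therefore do not cover genes that varied more between libraries, or differences in epididymis or ribosomal RNA reads. 22 alternatives were run, on scaling, filters, weights, covariates and libraries left out.

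The 10 genes and the gene lists were chosen with earlier results of these data known. Named are the 10 genes, the first 4 genes above the filter in each of 7 related lists, and the 3 genes most correlated with Pdgfra and with Pi16; other genes are marker examples or were chosen after their values were seen. Sequences, 3′ UTRs and exon lengths are from GRCm38 tables (RefSeq, GENCODE M21), not the mm9 build of the files, and were matched by symbol.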

Additional observations from a re-analysis of the deposited data

Results flagged for a closer look

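In each group of 4 libraries, the highest or lowest library was compared with the spread of the rest for the 44 named genes, 88 groups in all. By Dixon's criterion at 95% 3 groups had a library that stood apart; chance gives about 1 in 20 groups. None of the 10 progenitor and fibroblast genes was among them. The type I collagen gene Col1a1 stood at 10.17 log2 CPM in WT replicate 4, against 9.59 to 9.68 in the other WT libraries. Arhgef10l stood at 4.97 in knockout replicate 2, against 4.41 to 4.44. Scyl3 stood at 5.13 in WT replicate 2, against 4.79 to 4.84. The last 2 were named for their correlation with Pdgfra, which was highest in its group in the same libraries (7.05 and 7.41). That overlap follows from how they were picked and is not a separate result. Both libraries have over 1% epididymis reads.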

How the results depend on the processing

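Of 965 changes of the 44 named genes under the alternatives, 890 kept their direction and side of the threshold, 24 lost the call, 36 gained it and 15 changed sign. Gpc3, Mfap5, Anxa3 and Thy1 passed in all 22 alternatives, and 5 to 7 of the 10 genes passed with 1 library left out. The sign changed for Pi16 (0.019 without the 3 libraries with over 1% epididymis reads), Cd34 (−0.11 with median centring, −0.070 with median-ratio scaling together with voom weights, −0.031 without the 18S and 28S ribosomal RNA genes and the gene Lars2 in the totals, and −0.029 to 0.078 with 1 library left out) and Ly6a (0.0023 with array weights). It also changed for Cd55 (0.23 with the ribosomal RNA class, 0.051 without those 3 libraries, 0.024 with the epididymis level, and −0.29 to 0.15 with 1 library left out), Sema3c (−0.12 with array weights, −0.064 to 0.49 with 1 library left out) and Rnf19b (0.010 without those 3 libraries). None of these differences had passed, and the cause was not tested.

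Scaling moved the median change of all genes from 0.18 to 0.03 with median centring, and the split of all calls from 3137 higher and 2216 lower to 2444 and 2825. Quantile normalization gave 2478 and 2660, median-ratio scaling with voom weights 2414 and 2964. Array weights, without a change of scaling, gave 4428 higher and 2609 lower. The labels do not say whether the replicate numbers pair the samples. Same-numbered libraries deviated together with r of 0.36, 0.79, 0.24 and −0.36, and differently numbered ones with r from −0.78 to 0.57. The value of 0.79 is that of replicates 2, which both have over 1% epididymis reads. These correlations cannot decide whether the samples were paired. With the replicate number as a block 7 of the 10 genes passed, Pdgfra being added (adjusted p = 0.0375), and 5368 genes in all against 5353. With 3736881 to 76838584 reads a library, 1 read is 0.268 to 0.0130 CPM, which limits genes near the filter such as Bmp7 more than the 10 genes.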
